A study of Mus musculus with 8 samples.

Results

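Levels of 6 thyroid hormone handling genes were compared in colonic tumors of MDR1A KO and WT mice: the deiodinases Dio2 and Dio1, the transporter Slc16a10, the hormone receptors Thra and Thrb, and the hormone-responsive factor Klf9. They are 6 of the 22180 mouse genes that a probe set of the array assigned to exactly 1 gene symbol could measure. The set was chosen by the difference of Dio2 between genotypes, which was low in MDR1A KO tumors, so for it and the other 5 genes this difference is a description, and counts of calls among them support nothing. Where a gene had more than 1 such probe set, the one with the highest mean over the 8 arrays stood for it.

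The tumors came from 4 MDR1A KO and 4 WT male mice, all FVB/N, with 1 tumor per mouse and 1 array per tumor. MDR1A KO mice lack the drug efflux pump encoded by Abcb1a (Mdr1a) from birth and in every tissue, so the deletion was not limited to the tumor. Both genotypes received 1 injection of the carcinogen azoxymethane (AOM, 10 mg/kg) at 6 weeks of age, then 2.5% dextran sulfate sodium (DSS), which injures the colonic lining, in the drinking water for 7 days starting on days 0, 21 and 42. Tumors, all recorded as adenomas, were excised on day 84. No tissue from untreated mice or from colon outside the tumors was included in the arrays. All levels are log2 signals on GeneChip Mouse Gene 2.0 ST arrays, where 1 unit is a 2-fold difference, and the log2 fold change (log2FC) of a gene is its MDR1A KO mean minus its WT mean. It is given with its standard error (SE).

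Thyroid hormone leaves the gland mostly as thyroxine (T4), a prohormone, and is activated in tissues. The type 2 deiodinase encoded by Dio2 removes an iodine from the outer ring of T4 and so makes T3, the form that binds the nuclear receptors Thra and Thrb, whereas the type 3 enzyme (Dio3) inactivates both. Hormone crosses the cell membrane through carriers such as Slc16a10 (MCT10), and T3-bound receptors switch genes such as Klf9 on. In the mouse intestine the hormone acts mainly through Thra, on the progenitor cells of the crypts.

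The promoter sequences of 3 of the genes are shown because transcription of the human DIO2 gene is known to respond to cyclic AMP through a cAMP response element (CRE) near its start. Each is the stretch of 250 bases before the transcription start, 5′ to 3′ on the strand of the gene, from RefSeq on mouse build GRCm38.p6. Capitals mark the CRE TGACGTCA and the TATA box TATAAA in Dio2 and an AP-1 type site (TGANTCA) in Klf9. Of the 6 genes, 5 had a promoter entry, and Thra had none.
Dio2, chr12:90739039-90739288, minus strand: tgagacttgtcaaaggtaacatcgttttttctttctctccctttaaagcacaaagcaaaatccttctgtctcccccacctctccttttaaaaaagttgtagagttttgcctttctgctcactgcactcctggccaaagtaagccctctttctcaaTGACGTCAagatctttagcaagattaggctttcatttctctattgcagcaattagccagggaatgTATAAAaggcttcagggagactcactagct
Dio1, chr4:107307169-107307418, minus strand: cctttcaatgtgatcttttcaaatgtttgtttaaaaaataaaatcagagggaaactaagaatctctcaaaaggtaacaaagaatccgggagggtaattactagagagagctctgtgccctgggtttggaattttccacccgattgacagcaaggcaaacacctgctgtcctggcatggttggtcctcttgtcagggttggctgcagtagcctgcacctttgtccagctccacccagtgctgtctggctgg
Klf9, chr19:23140976-23141225, plus strand: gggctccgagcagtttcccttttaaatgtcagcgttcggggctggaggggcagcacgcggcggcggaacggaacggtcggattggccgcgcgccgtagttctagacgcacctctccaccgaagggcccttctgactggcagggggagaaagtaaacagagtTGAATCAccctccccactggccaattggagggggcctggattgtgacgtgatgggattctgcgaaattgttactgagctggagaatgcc

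The CRE of mouse Dio2 lay at bases -95 to -88 and its TATA box at -30 to -25, counted back from the start. Among 32851 promoters of the same length, searched on both strands, 1.55% held a CRE, 12.4% a TATA box and 6.75% an AP-1 type site. Of the 5 genes with an entry, Dio2 alone held the CRE. The Klf9 site was at -89 to -83, and the Dio1 stretch held none of the 5 motifs searched. The receptor-binding hexamer AGGTCA was found in a Thrb promoter at -184 to -179 and in 14% of all promoters. Another promoter entry of Thrb lacked it and held TATAAA at -167 to -162. The hexamer repeated in tandem with any 4 bases between (DR4), the arrangement that hormone receptors prefer, was in 5 of all promoters (0.0152%) and in none of these genes. Base composition set the Dio2 promoter apart from the Klf9 promoter, with 41.6% and 59.6% G or C, against a median of 52.4% over all promoters. A match to letters is a description and no evidence that a factor was bound.

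Expression of Dio2 was lower in MDR1A KO than in WT tumors. In MDR1A KO tumors 1 to 4, its log2 signal was 6.37, 6.10, 7.35 and 6.49, against 10.22, 7.88, 8.53 and 8.65 in WT tumors 1 to 4. Every MDR1A KO tumor was below every WT tumor, and a gap of 0.53 separated MDR1A KO tumor 3 and WT tumor 2, the closest of the opposite genotypes. The means were 6.58 ± 0.54 in MDR1A KO and 8.82 ± 0.99 in WT tumors (SD, n = 4 each), a log2FC of -2.24 (SE 0.46), or 4.72-fold lower in MDR1A KO. Among the 22180 genes, that change ranked 3 when ordered from the most negative. Since bulk tumor RNA was measured, fewer cells of a type that makes Dio2 and less Dio2 RNA per cell cannot be told apart.

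**Figure D1:**
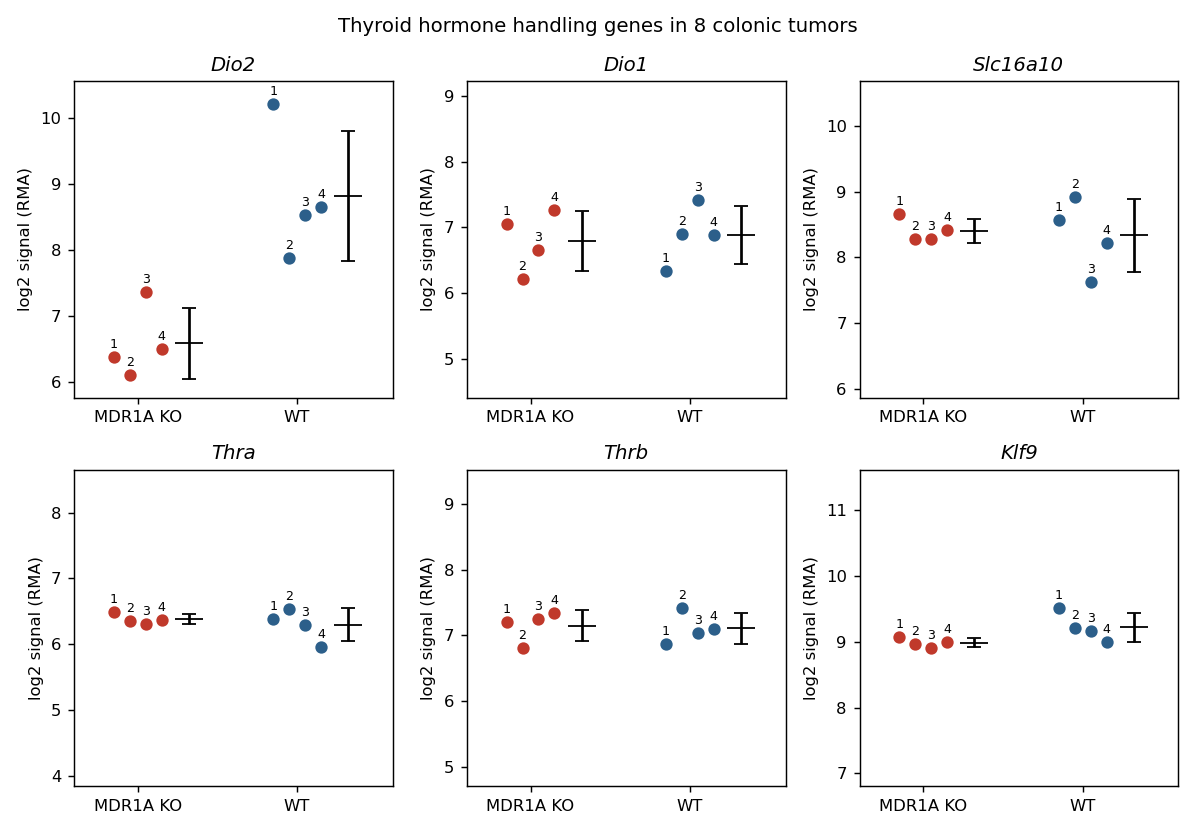
Log2 signal (RMA, vertical axis) of the 6 genes in each colonic tumor, MDR1A KO in red and WT in blue, with the replicate number over each point and the mean ± SD (n = 4) beside each group. Every panel spans the same number of log2 units. Dio2 is the only one of the 6 genes whose groups do not overlap, with MDR1A KO tumors at 6.10 to 7.35 and WT tumors at 7.88 to 10.22.

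The spread of Dio2 within a genotype was wide. WT tumor 1 stood 1.56 above the next tumor, WT tumor 4, and MDR1A KO tumor 3 stood 0.86 above the next MDR1A KO tumor. Without WT tumor 1 the log2FC was -1.77, and without WT tumor 2, the lowest of its group, it was -2.55. A log2FC beyond 2-fold was therefore present whichever single tumor was left out.

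A second probe set named Dio2 behaved differently. Its log2 signal was 3.48, 3.45, 3.97 and 3.88 in MDR1A KO tumors 1 to 4, against 3.59, 3.55, 4.15 and 3.58 in WT tumors 1 to 4. The groups overlapped, with means of 3.70 ± 0.27 in MDR1A KO and 3.72 ± 0.29 in WT tumors (SD, n = 4 each) and a log2FC of -0.02 (SE 0.17). Signals this low were common among genes that a colon tumor is not expected to use: 1429 sensory receptor genes (olfactory, vomeronasal and taste) had a median of 2.97 and a 95th percentile of 5.16. The probe set with the high signal was above that percentile, as were those of the other 5 genes. The sources used here do not give the part of the transcript that each Dio2 probe set covers.

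Dio1 encodes the type 1 deiodinase, which can activate or inactivate the hormone and is best known from liver, kidney and thyroid. Its log2 signal was 7.04, 6.22, 6.66 and 7.26 in MDR1A KO tumors 1 to 4, against 6.33, 6.90, 7.42 and 6.88 in WT tumors 1 to 4. Tumors of both genotypes were mixed along its whole range, with WT tumor 3 highest and MDR1A KO tumor 2 lowest. The log2FC was -0.09 (SE 0.27), from means of 6.80 ± 0.46 in MDR1A KO and 6.88 ± 0.44 in WT tumors (SD, n = 4 each).

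Dio3, the inactivating enzyme, was not among the 6 genes but completes the family. It averaged 4.41 ± 0.19 in MDR1A KO and 4.55 ± 0.10 in WT tumors (SD, n = 4 each), which is under the 95th percentile of the sensory receptor genes. Its log2FC was -0.14 (SE 0.11, limma adjusted p = 0.877). At that signal a difference in Dio3 was not readily measurable.

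Slc16a10 (MCT10) carries T3 and T4 as well as aromatic amino acids across the cell membrane. Its log2 signal was 8.66, 8.27, 8.28 and 8.41 in MDR1A KO tumors 1 to 4, against 8.57, 8.92, 7.62 and 8.22 in WT tumors 1 to 4. The MDR1A KO tumors lay within the range of the WT tumors, whose tumor 2 was the highest and tumor 3 the lowest of all. The means of 8.41 ± 0.18 in MDR1A KO and 8.33 ± 0.55 in WT tumors (SD, n = 4 each) gave a log2FC of 0.07 (SE 0.24).

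Thra is the receptor gene most used in intestinal epithelium of the mouse. Its log2 signal was 6.49, 6.36, 6.31 and 6.36 in MDR1A KO tumors 1 to 4, against 6.39, 6.54, 6.29 and 5.95 in WT tumors 1 to 4. The MDR1A KO tumors were close together and WT tumor 4 stood 0.34 below the next tumor. Means of 6.38 ± 0.08 in MDR1A KO and 6.29 ± 0.25 in WT tumors (SD, n = 4 each) differed by a log2FC of 0.08 (SE 0.12).

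Thrb encodes the other hormone receptor, which is prominent in liver and in the feedback on the pituitary. Its log2 signal was 7.20, 6.80, 7.25 and 7.35 in MDR1A KO tumors 1 to 4, against 6.87, 7.42, 7.04 and 7.09 in WT tumors 1 to 4. The groups overlapped, with the highest value in WT tumor 2 and the lowest in MDR1A KO tumor 2. The log2FC was 0.04 (SE 0.15), with means of 7.15 ± 0.24 in MDR1A KO and 7.11 ± 0.23 in WT tumors (SD, n = 4 each).

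Klf9 is a zinc finger transcription factor whose gene responds to T3 and to glucocorticoids. Its log2 signal was 9.07, 8.96, 8.90 and 9.0 in MDR1A KO tumors 1 to 4, against 9.51, 9.21, 9.16 and 8.99 in WT tumors 1 to 4. Only WT tumor 4 reached into the MDR1A KO range, just under MDR1A KO tumor 4. The means were 8.98 ± 0.07 in MDR1A KO and 9.22 ± 0.22 in WT tumors (SD, n = 4 each), and the log2FC of -0.24 (SE 0.11) was smaller in size than that of Dio2. When single tumors were left out, the log2FC of Klf9 lay between -0.31 and -0.14.

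Of the 6 genes, 3 had a lower and 3 a higher mean in MDR1A KO tumors. The groups did not overlap for 1 of the 6, Dio2, while 3.72% of all named probe sets had groups that did not overlap. The same gene alone was under an unadjusted p of 0.05 in limma, where 6.4% of named probe sets were, and alone met the criterion of the methods (an unadjusted p under 0.05 and at least 2-fold), which 0.241% met, with 0.0829% lower in MDR1A KO. As Dio2 was chosen for this contrast, nothing is read from these counts. The signs for Dio1, Thra, Thrb and Slc16a10 were not fixed: each turned when certain single tumors were left out.

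**Figure D2:**
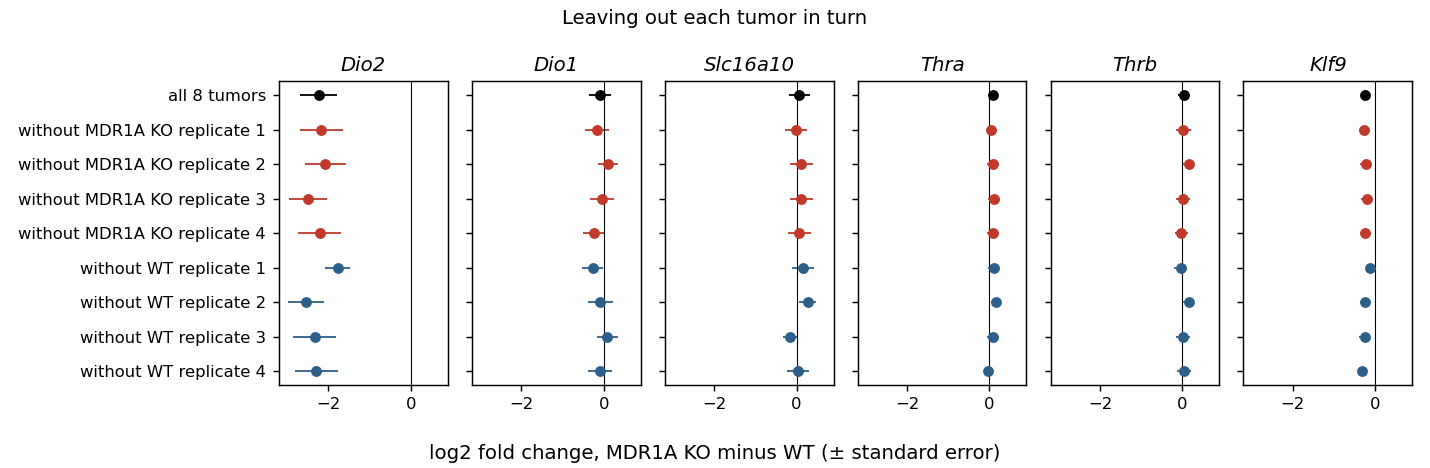
Log2FC (horizontal axis, MDR1A KO minus WT) with its SE for each gene, over all 8 tumors (black) and with each MDR1A KO tumor (red) or WT tumor (blue) left out. Dio2 stays between -2.55 and -1.77 and Klf9 between -0.31 and -0.14, while the values of the other 4 genes lie on both sides of 0.

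Dio2 and Klf9 were highest in WT tumor 1, Thra, Thrb and Slc16a10 in WT tumor 2 and Dio1 in WT tumor 3. Each gene's deviations from its genotype means were set against those of every other, which removes the difference between genotypes, and Pearson's r over the 8 tumors was taken as a description. Dio2 gave r = 0.53 with Klf9, -0.40 with Dio1, -0.35 with Thrb, -0.12 with Thra and -0.05 with Slc16a10. The highest value among the 15 pairs, 0.66, was between Thra and Klf9. These values rest on 4 tumors per genotype.

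By the same measure over 13487 genes, those most like Dio2 were Tnfrsf9 (r = 0.99), a costimulatory receptor of activated T cells, the phosphatase gene Phospho2 (0.98), the DNA repair gene Rad52 (0.97), Pgf (0.97), an angiogenic growth factor, and Nkapl (0.96). Next came the nucleoside transporter Slc29a2 (0.93) and Pappa, Zfp319, Nbdy and Dis3 (each 0.92). Nkapl had a mean signal under the 95th percentile of the sensory receptor genes. As the highest among 13487 genes, with 8 tumors each, values of r this high can arise by chance. WT tumor 1 and MDR1A KO tumor 3 were the tumors farthest from their genotype mean in Dio2. Without them r was 0.29 for Slc29a2, 0.42 for Dis3 and 0.59 for Pappa, and up to 0.94 for Phospho2. Between genotypes, 6 of the 10 had a lower and 4 a higher mean in MDR1A KO tumors. Pappa, a protease that frees insulin-like growth factors, had a log2 signal of 7.15, 6.65, 7.47 and 6.99 in MDR1A KO tumors 1 to 4, against 8.92, 7.29, 7.85 and 7.32 in WT tumors 1 to 4. Its log2FC was -0.78 (SE 0.34, limma adjusted p = 0.78), and its groups overlapped. Of the 10, 3 others were under an unadjusted p of 0.05 in limma, and for none of these did the groups overlap. Over all named probe sets, 6.4% were under an unadjusted p of 0.05 and 3.72% had groups that did not overlap. As these 10 genes were picked for their r, nothing is read from the counts. Rad52 (0.18, SE 0.08, adjusted p = 0.78) and Nbdy (0.20, SE 0.07, adjusted p = 0.738) were higher in MDR1A KO, and Slc29a2 (-0.23, SE 0.09, adjusted p = 0.738) was lower.

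The genes most like Klf9 were Per1 (r = 0.99), a core component of the circadian clock, the kinase genes Sik1 (0.99) and Sgk1 (0.98), the pseudokinase gene Trib1 (0.98) and the protease gene Tmprss11e (0.98). Samd4b (0.98), Rnf223, Riok3 and Smad4 (each 0.97) and Med13l (0.96) followed. They too are the highest among 13487 genes, with 8 tumors each, so the same limit holds. Without WT tumors 1 and 4, the farthest from the mean of Klf9, r lay between 0.58 and 0.96. Per1 had a log2 signal of 8.15, 7.83, 7.47 and 7.84 in MDR1A KO tumors 1 to 4, against 8.97, 8.01, 7.58 and 7.05 in WT tumors 1 to 4. Per1 thus differed more among the WT tumors than between genotypes, with a log2FC of -0.08 (SE 0.35, limma adjusted p = 0.984). Sgk1 was 7.13 ± 0.29 in MDR1A KO and 7.81 ± 0.76 in WT tumors (SD, n = 4 each), a log2FC of -0.68 (SE 0.33, limma adjusted p = 0.793). Of the 10, 7 had a lower and 3 a higher mean in MDR1A KO tumors. Tmprss11e was the only one under an unadjusted p of 0.05 in limma, at 6.39 ± 0.33 in MDR1A KO and 5.46 ± 0.66 in WT tumors (SD, n = 4 each), a log2FC of 0.92 (SE 0.30, adjusted p = 0.708). Over all named probe sets, 6.4% were under an unadjusted p of 0.05.

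**Figure D3:**
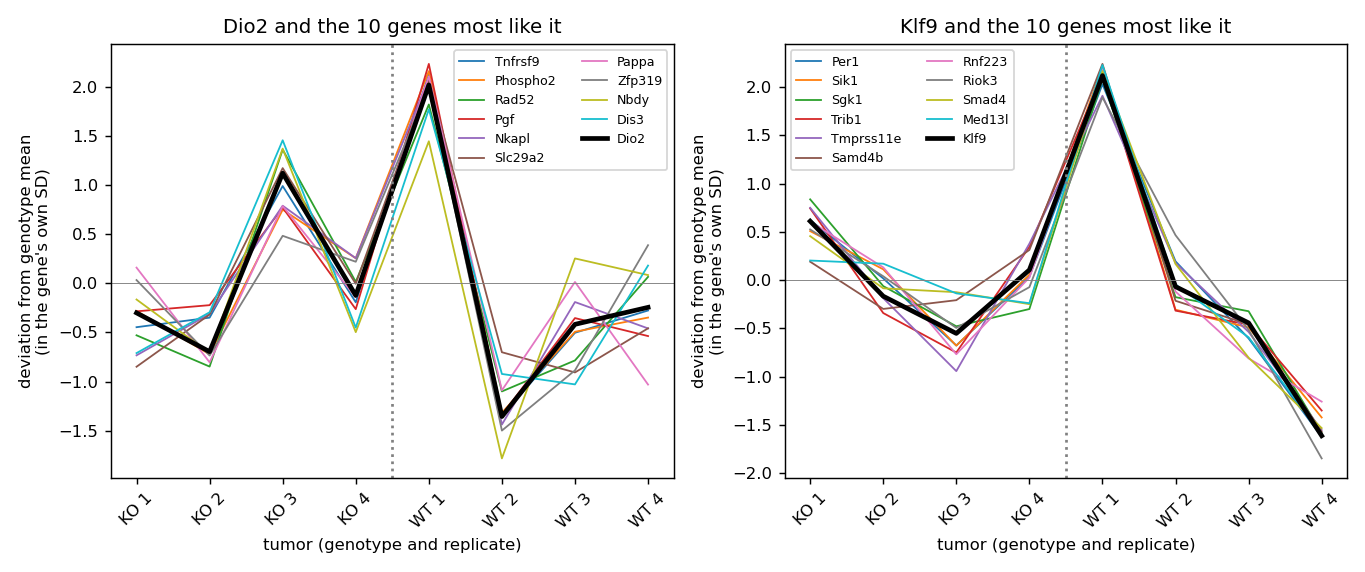
Deviation of each tumor from its genotype mean, in units of the gene's own SD (vertical axis), for Dio2 (left, black) and Klf9 (right, black) with the 10 genes most like each (coloured). Tumors run along the horizontal axis by genotype and replicate number, which has no order, and lines only join the values of a gene. WT tumor 1 is highest in both panels, and Pearson's r with Dio2 is between 0.92 and 0.99 and with Klf9 between 0.96 and 0.99.

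To set the 6 genes among the rest of the pathway, 72 other genes in 9 lists were counted, of 85 listed. In limma, 4 of the 72 (5.56%) were under an unadjusted p of 0.05, against 6.4% of all named probe sets. Of these, 1 was higher and 3 were lower in MDR1A KO tumors, where 3.66% of named probe sets were higher and 2.74% lower. By the methods' t-test 8 of the 72 (11.1%) were under an unadjusted p of 0.05, against 6.12% of all named probe sets. None of the 72 passed adjustment by either, which 0.0158% of named probe sets did in limma. The median log2FC of the 72 was -0.03, beside 0.001 over all named probe sets, and 33 had a higher and 39 a lower mean in MDR1A KO tumors. No listed gene outside the 6 differed by as much as 2-fold, the range being -0.84 to 0.38.

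**Figure D4:**
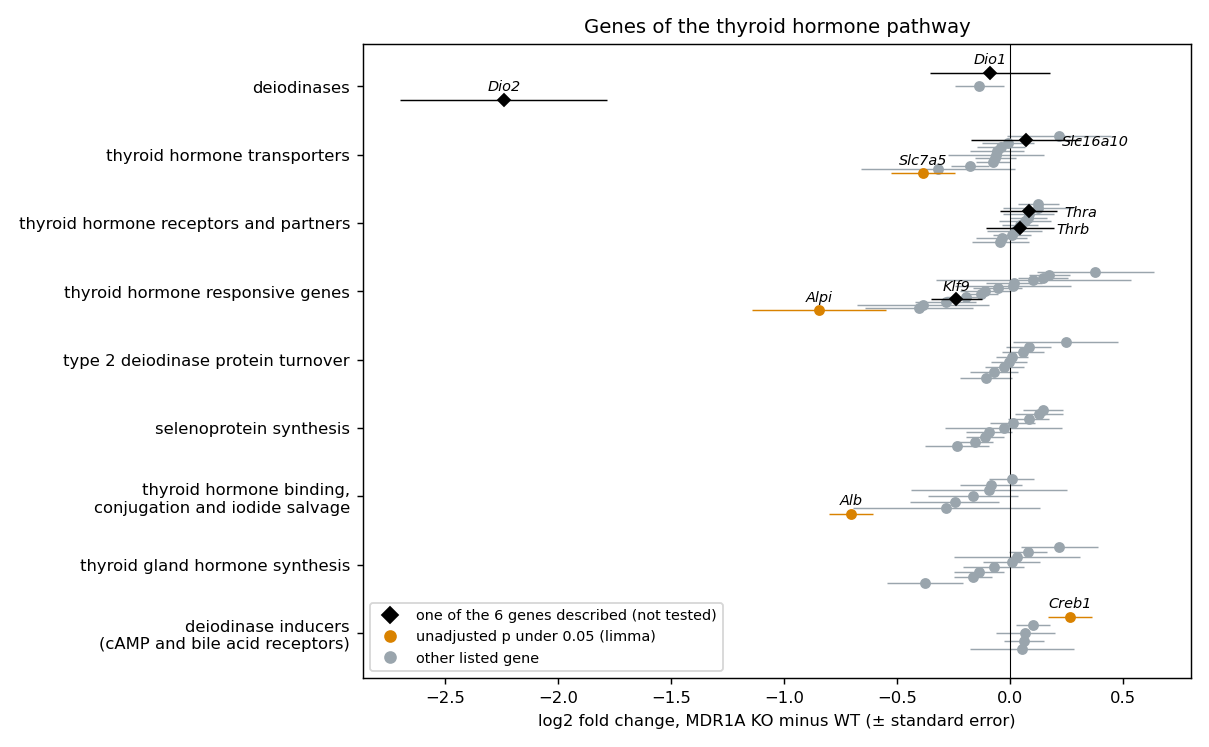
Log2FC (horizontal axis, MDR1A KO minus WT, with SE) for the genes of 9 thyroid hormone lists (rows): black diamonds are the 6 genes described, orange points have an unadjusted limma p under 0.05 and grey points do not. Dio2 at -2.24 lies far from the other genes, which run between -0.84 (Alpi) and 0.38.

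Among the transporters, 9 of the 10 measured besides Slc16a10 had a lower mean in MDR1A KO tumors. Their median log2FC was -0.06, beside 0.001 over all named probe sets. Only 6 of the 10 had a signal above the 95th percentile of the sensory receptor genes. Slc7a5 (LAT1), an amino acid exchanger that also carries thyroid hormone, was 8.72, 8.81, 8.74 and 8.39 in MDR1A KO tumors 1 to 4, against 9.31, 8.93, 8.77 and 9.18 in WT tumors 1 to 4. MDR1A KO tumor 2 was just above WT tumor 3, and the other tumors were separated by genotype. Its log2FC was -0.38 (SE 0.14, unadjusted p = 0.0223 and adjusted p = 0.738 in limma). Without MDR1A KO tumor 4, WT tumor 1 or WT tumor 4, Slc7a5 was no longer under 0.05, and its log2FC lay between -0.48 and -0.29 over 18 alternatives. Slco2b1 (0.22, SE 0.23), Slco1a5 (-0.18, SE 0.08) and Slco4a1 (-0.07, SE 0.07), organic anion carriers, were not under 0.05 in limma, and Slco1a5 was by the methods' t-test. The signal of Slco1a5, at 3.81 in MDR1A KO and 3.98 in WT tumors, was under the 95th percentile of the sensory receptor genes.

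Of the 10 receptor partners measured besides Thra and Thrb, 8 had a higher mean in MDR1A KO tumors, none was under an unadjusted p of 0.05 in limma or by the methods' t-test, and the median log2FC was 0.06. Hdac3, the deacetylase of the corepressor complex, was the one with the smallest p, at 9.78 ± 0.09 in MDR1A KO and 9.66 ± 0.12 in WT tumors (SD, n = 4 each). Its log2FC was 0.13 (SE 0.09, limma adjusted p = 0.858). Tbl1x and Tbl1xr1, further subunits of the complex, had values of 0.08 each (SE 0.08 and 0.11).

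The hormone-responsive genes other than Klf9 were split, with 6 higher and 8 lower means of 14 and a median of -0.08. Alpi, intestinal alkaline phosphatase of the enterocyte brush border, had a log2 signal of 5.28, 5.10, 5.32 and 6.26 in MDR1A KO tumors 1 to 4, against 5.60, 6.56, 6.54 and 6.63 in WT tumors 1 to 4. MDR1A KO tumor 4 and WT tumor 1 each stood apart from their own group, so that the groups overlapped. Its log2FC was -0.84 (SE 0.30, unadjusted p = 0.0184 and adjusted p = 0.738 in limma), and it was not under 0.05 by the methods' t-test or without MDR1A KO tumor 2. By the methods' t-test Gpd2 and Atp2a2, the calcium pump of the endoplasmic reticulum (-0.13, SE 0.08), were. Gpd2, mitochondrial glycerol phosphate dehydrogenase and a classical target in rat liver, was at -0.20 (SE 0.09, adjusted p = 0.781), and Cpt1a, the gate of fatty acid entry into mitochondria, at -0.28 (SE 0.13, adjusted p = 0.786). Hr, a corepressor gene that T3 switches on in brain, was at 0.02 (SE 0.12). Among the others with a higher mean, Bcl3 was at 0.18 (SE 0.09, limma adjusted p = 0.804) and Ppargc1a at 0.38 (SE 0.26, limma adjusted p = 0.852).

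The type 2 deiodinase is unusually short-lived, since binding of T4 leads to its ubiquitination. Of 8 genes for this turnover, 4 had a higher and 4 a lower mean in MDR1A KO tumors, and none was under an unadjusted p of 0.05 in limma or by the methods' t-test. Wsb1, the adaptor that recognises the enzyme, was 8.84 ± 0.12 in MDR1A KO and 8.91 ± 0.16 in WT tumors (SD, n = 4 each), a log2FC of -0.07 (SE 0.11). Usp33, which removes the ubiquitin, was at 0.08 (SE 0.10). Deiodinases also need selenocysteine, and of 9 genes for selenoprotein synthesis none was under 0.05 in limma and 1 by the methods' t-test. That gene, Sepsecs, whose enzyme forms selenocysteine on a transfer RNA, had a log2FC of -0.16 (SE 0.08, limma adjusted p = 0.806).

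Among genes that bind or conjugate the hormone, 6 of 7 had a lower mean in MDR1A KO tumors, with a median of -0.16. Alb, serum albumin, a hepatic gene whose protein carries thyroid hormone in blood, was 6.61, 6.52, 6.45 and 6.46 in MDR1A KO tumors 1 to 4, against 7.07, 7.16, 7.43 and 7.18 in WT tumors 1 to 4. Its groups did not overlap, as for 1.59% of named probe sets in that direction. The log2FC was -0.70 (SE 0.10, unadjusted p = 4e-05 and adjusted p = 0.102 in limma), and the adjusted p lay between 0.0734 and 0.396 over 18 alternatives. Ttr, transthyretin, another carrier, lay at 6.57 to 7.26 in MDR1A KO tumors. In WT tumor 4 alone it reached 8.69, and WT tumors 1 to 3 had 6.60 to 6.84.

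Genes that work in the thyroid gland were listed too. Of the 8 measured, 6 had a signal above the 95th percentile of the sensory receptor genes, Tg (thyroglobulin) among them at 5.25 in MDR1A KO and 5.33 in WT tumors, so a signal just over that percentile does not by itself show expression. Of the 8, none was under an unadjusted p of 0.05 in limma and 1, Foxe1, by the methods' t-test (-0.16, SE 0.09). Pax8, a transcription factor of the thyroid, had a log2 signal of 5.15 ± 0.23 in MDR1A KO and 5.53 ± 0.30 in WT tumors (SD, n = 4 each), a log2FC of -0.38 (SE 0.17, limma adjusted p = 0.781). Duox2, an oxidase that the colon also makes, was at 0.22 (SE 0.17).

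Upstream of Dio2 stand cyclic AMP and, in brown fat of the mouse, the bile acid receptor Gpbar1 (TGR5). All 5 genes measured on this list had a higher mean in MDR1A KO tumors, with a median of 0.07. Creb1 encodes a factor that binds CRE sequences, and its binding at Dio2 was not measured here. The log2 signal of Creb1 was 9.09, 8.99, 9.24 and 9.21 in MDR1A KO tumors 1 to 4. In WT tumors 1 to 4 it was 8.69, 8.86, 8.90 and 9.02. MDR1A KO tumor 2 was just below WT tumor 4, and all other MDR1A KO tumors were above every WT tumor. The log2FC of Creb1 was 0.27 (SE 0.10, unadjusted p = 0.0227 and adjusted p = 0.738 in limma). It was not under 0.05 without MDR1A KO tumor 3, MDR1A KO tumor 4 or WT tumor 1. Gpbar1 had a signal just over the 95th percentile of the sensory receptor genes, at 5.33 ± 0.06 in MDR1A KO and 5.23 ± 0.07 in WT tumors (SD, n = 4 each), with a log2FC of 0.10 (SE 0.08).

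The neighbours of Dio2 on chromosome 12 were examined too. The nearest in order on either side, Gm40538, Gm2139, Gm26512 and n-R5s65, were not analysed here. The nearest measured protein-coding genes, picked after their values were seen, were Nrxn3, a synaptic adhesion gene, and Cep128, a gene for a centriole protein. Nrxn3 was 5.80 ± 0.10 in MDR1A KO and 5.63 ± 0.17 in WT tumors, with a log2FC of 0.18 (SE 0.11, limma adjusted p = 0.833). Cep128 was 7.52 ± 0.08 in MDR1A KO and 7.40 ± 0.13 in WT tumors, with a log2FC of 0.12 (SE 0.09, limma adjusted p = 0.87), each with SD and n = 4 per genotype.

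The labels were checked in the same tumors. Abcb1a was 6.13 to 6.87 in MDR1A KO and 8.69 to 9.46 in WT tumors, a log2FC of -2.67 (SE 0.20, limma adjusted p = 0.00599). Median signals of the arrays were 5.62 to 5.67. All 11 epithelial markers, among them Epcam, Cdh1 and Vil1, were above the 95th percentile of the sensory receptor genes.

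Levels of cell type markers are given beside Dio2, and no marker list passed adjustment. The mean of the 11 epithelial markers was 10.40 to 10.55 in MDR1A KO and 10.61 to 10.74 in WT tumors, and 10 of the 11 had a lower mean in MDR1A KO. The exact two-sided permutation test gave p = 0.029, the smallest that 4 against 4 allows, and 0.29 after adjustment over 10 marker lists. Krt20 and Cdx2, markers of differentiated colonocytes and of intestinal identity, had log2FC values of -0.65 each (SE 0.19 and 0.26, limma adjusted p = 0.635 and 0.756). The other 9 lay between -0.20 (Vil1) and 0.02 (Cdx1), another intestinal identity gene, with Epcam at -0.03, and the median of the 11 was -0.13. The mean of 8 macrophage and monocyte markers was 8.51 to 8.72 in MDR1A KO and 7.91 to 8.53 in WT tumors, with all 8 means higher and 6 of them under an unadjusted p of 0.05 in limma. Over all named probe sets, 6.4% were under an unadjusted p of 0.05 in limma, with 3.66% higher in MDR1A KO. The macrophage and monocyte list gave an exact permutation p of 0.057, and 0.29 adjusted.

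The mean of 7 smooth muscle markers was 9.86 to 10.30 in MDR1A KO tumors, against 9.59, 8.26, 10.60 and 8.08 in WT tumors 1 to 4. Fibroblast markers were 9.19 to 9.31 in MDR1A KO and 8.55 to 9.58 in WT tumors, with an exact permutation p of 0.37. WT tumor 3 was at the top of the muscle and fibroblast lists, and WT tumor 4 at the bottom of both. Slc16a10 was lowest in WT tumor 3 (7.62) and next lowest in WT tumor 4 (8.22). Thra was lowest in WT tumor 4 (5.95) and next lowest in WT tumor 3 (6.29). The part of any of these lists in the levels of the 6 genes was not tested.

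**Figure D5:**
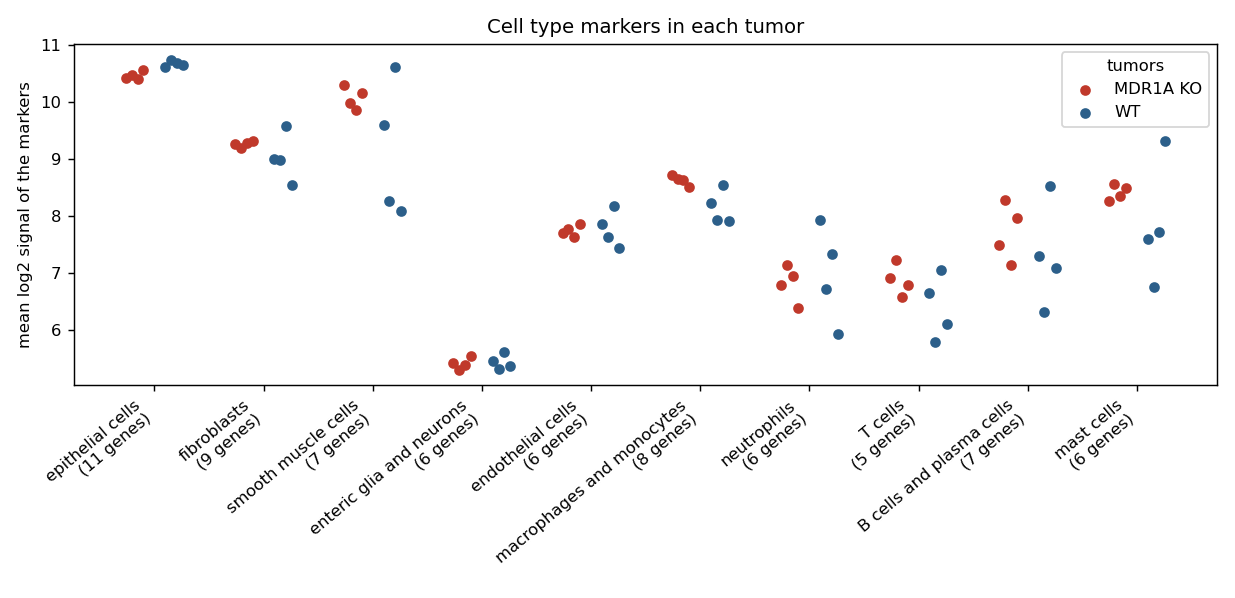
Mean log2 signal of the markers of 10 cell types (vertical axis) in each MDR1A KO (red) and WT (blue) tumor, with the number of genes measured under each name. The epithelial means are separated by genotype (10.40 to 10.55 in MDR1A KO, 10.61 to 10.74 in WT), and the smooth muscle means of WT tumors run between 8.08 and 10.60.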

How the data were processed

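Colonic tumors of 4 MDR1A KO and 4 WT mice were profiled, 1 array per tumor. The authors deposited log2 signals made in Affymetrix Expression Console 1.4 with RMA, per the labels and the methods: the background was corrected, arrays were quantile-normalized and probes were summarised into probe sets. Quantile normalization gives all arrays nearly the same distribution, so levels are relative to each array. RNA was extracted with either of 2 kits, and the sources used here give neither the kit of each tumor nor the annotation release of the array. The precision is limited by 4 arrays per genotype. Tumors of a genotype came from different mice.

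Of 41345 probe sets, 25341 had a symbol, 23521 of them exactly 1 symbol and 1820 several, and 16004 had none. Names came from the platform annotation. No pair of arrays held identical values, and 0 columns lacked a sample. limma 3.58.1 in R 4.3.3 (lmFit and eBayes, genotype as the only term) gave log2 fold changes, standard errors and two-sided p-values, adjusted by Benjamini-Hochberg across 25341 named probe sets with a threshold of 0.05. It was also run on data simulated with known shifts and with the spread of these arrays. The unpaired test of the study, called the methods' t-test, was an alternative, as were other feature sets, scalings, variance models, array weights, a replicate block, the mean over probe sets and leaving out each tumor. Marker list means were compared by exact permutation over 70 arrangements. For likeness, deviations from genotype means were correlated over genes outside the lowest 33.3% by mean, with predicted genes and unnamed RNAs left out. Promoters came from RefSeq (GRCm38.p6). Tables were made with pandas 2.3.3, numpy 2.4.6 and scipy 1.17.1, figures with matplotlib 3.10.9 (Python 3.11.15).

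The 6 genes and all lists were chosen with earlier results of these data known. Named genes are the 6, genes among the 4 of smallest p per list, and all listed genes under an unadjusted 0.05 by either test. Dio3, Hr, the neighbours of Dio2, the 10 genes most like Dio2 and Klf9, and Abcb1a were added. Tg, Bcl3, Ppargc1a, some cell type markers and the genes flagged for a closer look are named besides. The listed genes with no 1-symbol probe set, 13 of 85, were not analysed here.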

Additional observations from a re-analysis of the deposited data

Results flagged for a closer look

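Among 228 groups of 4 tumors examined (103 genes named or listed, a dim probe set of Dio2 and 10 marker lists, by genotype), 10 held a tumor far from the other 3, which is 4.39%. In these the gap to the nearest tumor, divided by the range of the group, was above Dixon's 95% critical value. Chance alone gives about 1 in 20 groups. None of the 10 concerned the probe sets that stood for Dio2 and the other 5 genes. The dim probe set of Dio2 was 4.15 in WT tumor 3 against 3.55 to 3.59 in the other WT tumors, all under the 95th percentile of the sensory receptor genes (5.16).

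In MDR1A KO tumors, Sfrp2, a secreted Wnt modulator, was 6.99 in tumor 4 against 6.56 to 6.58 in the other 3, and Sephs1, a selenophosphate synthetase homologue, was 8.66 in tumor 4 against 8.97 to 9.02. Pgf, one of the genes most like Dio2, was 5.42 in MDR1A KO tumor 3, which also had the highest Dio2 of its group, against 5.18 to 5.19.

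In WT tumors, tumor 1 was low in the organic anion transporter gene Slc17a4 (6.15 against 7.39 to 7.56) and in Alpi (5.60 against 6.54 to 6.63), and high in Slc29a2 (6.90 against 6.67 to 6.70). The same tumor had the highest Dio2 of all 8. WT tumor 3 was high in the transporter gene Slco2b1 (7.43 against 6.30 to 6.48), WT tumor 2 was low in Socs1 (5.25 against 5.99 to 6.11), and WT tumor 4 was high in Ttr (8.69 against 6.60 to 6.84).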

How the results depend on the processing

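The log2 fold change of Dio2, the gene for which the set was chosen, was negative and beyond 2-fold in all 18 alternatives. Several of these change only the standard error or the probe sets tested, so they could not move the log2 fold change. It lay between -2.55 and -1.77 when single tumors were left out, and moved to -1.13 with the mean of both probe sets of Dio2 in place of the brighter. The count of named probe sets under an unadjusted p of 0.05 and beyond 2-fold was 61. It was 136 over all probe sets, 36 by the methods' t-test, 251 at 1.5-fold, and 58 to 123 when single tumors were left out, the highest without WT tumor 3. The count of pathway genes under an unadjusted p of 0.05, 4 of 72, was 8 by the methods' t-test, where 6.12% of all named probe sets were under 0.05, beside 6.4% in limma. It was 7 with arrays centred on their medians (6.37%), with eBayes with trend and robust (6.26%), and with array weights (7.26%). It was 3 to 8 when single tumors were left out (4.64% to 8.84%), the highest again without WT tumor 3. Alb was under 0.05 in all 18 alternatives, Slc7a5 and Creb1 in 15 and Alpi in 16. Slc7a5 was not without MDR1A KO tumor 4, WT tumor 1 or WT tumor 4, and Creb1 not without MDR1A KO tumors 3 or 4 or WT tumor 1. Alpi was not without MDR1A KO tumor 2 or by the methods' t-test. The cause of these differences was not tested.

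Leaving out single tumors gave -0.27 to 0.11 for Dio1, -0.03 to 0.17 for Thra, -0.03 to 0.16 for Thrb and -0.16 to 0.27 for Slc16a10. Their signs turned without MDR1A KO tumor 2 or WT tumor 3 (Dio1), WT tumor 4 (Thra), MDR1A KO tumor 4 or WT tumor 1 (Thrb), and MDR1A KO tumor 1 or WT tumor 3 (Slc16a10).

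Equal replicate numbers did not pair the tumors, which came from different mice. The deviations of tumors with the same number correlated at r = 0.11, 0.02, -0.10 and 0.35 for numbers 1 to 4, and only tumors of number 4 correlated best with their own number. With the replicate number as a block, Dio2 was at -2.24 (standard error 0.40) and 7 pathway genes were under 0.05, with 6.56% of all named probe sets.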
